A study of Homo sapiens with 4 samples.

Results

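Aminoacyl-tRNA synthetases are the enzymes that join each amino acid to its transfer RNA before translation. The 38 genes described here are 19 genes for cytosolic enzymes, 16 for mitochondrial enzymes and 3 for scaffold proteins. They were taken from a list of symbols matched to the 58884 Ensembl genes of the deposited table. All 38 were found, 17 of them under an older symbol such as AARS for AARS1. RNA was sequenced in 4 libraries, each the only library of its group. The 8505C groups were 8505C cells transfected to overexpress CRABP1 (cellular retinoic acid binding protein 1) and 8505C cells with the empty vector. The FTC-133 groups were FTC-133 cells overexpressing CRABP1 and FTC-133 cells with the empty vector. 8505C is a human anaplastic thyroid carcinoma line and FTC-133 a human follicular thyroid carcinoma line. The labels do not say whether a library came from a single clone, from pooled cells or from separate cultures.

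CRABP1 was at 537 TPM in 8505C with CRABP1 and at 385 TPM in FTC-133 with CRABP1, and it was listed at 0 in both vector libraries. TPM counts reads per gene length, and every library is brought to a total of 1000000. Between 19174557 and 20331464 reads per library were recovered from the TPM steps. The 37 mitochondrially encoded genes held 25.9% to 26.4% of the TPM in the 8505C libraries, 25.9% in FTC-133 with CRABP1 and 28.6% in FTC-133 with vector. Of the thyroid markers, PAX8 was at 0.16 and 0.24 TPM in the 8505C libraries with CRABP1 and vector, and at 143 and 100 TPM in the FTC-133 libraries with CRABP1 and vector. NKX2-1 was at 113 and 118 TPM in 8505C and at 17.7 and 44.7 TPM in FTC-133, in the same order. The 4 leukocyte markers summed to 28.9 and 56.8 TPM in 8505C with CRABP1 and vector, nearly all of it CD14 (28.6 and 56.5 TPM), and to 0.407 and 0.689 TPM in FTC-133, while PTPRC was at most 0.19 TPM in any library. The 3 endothelial markers summed to 100.3 and 107 TPM in 8505C, nearly all of it CDH5 (97.9 and 103 TPM), and to 4.75 and 3.80 TPM in FTC-133. Of the other endothelial markers, PECAM1 was at 2.19 and 3.68 TPM in 8505C and at 1.44 and 1.76 TPM in FTC-133, and KDR at 0.21 and 0.72 TPM in 8505C and at 3.18 and 2.04 TPM in FTC-133.

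As background, most cytosolic and mitochondrial enzymes come from separate nuclear genes, while GARS1 and KARS1 serve both compartments from 1 gene each. EPRS1 is a fused enzyme that charges both glutamate and proline tRNAs, FARSA and FARSB are the subunits of 1 phenylalanine enzyme, and AIMP1, AIMP2 and EEF1E1 hold a group of cytosolic enzymes in the multisynthetase complex. When amino acids run short or unfolded protein builds up, eIF2 kinases phosphorylate translation factor eIF2, the transcription factor ATF4 is made, and ATF4 switches on amino acid transport, amino acid synthesis and many cytosolic synthetase genes. This program is called the integrated stress response. The cytosolic genes were therefore split into 13 that are widely known as ATF4 targets (AARS1, CARS1, EPRS1, GARS1, IARS1, LARS1, MARS1, NARS1, SARS1, TARS1, VARS1, WARS1 and YARS1) and 6 others (FARSA, FARSB, HARS1, KARS1, QARS1 and RARS1).

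ATF4 binds, together with C/EBP proteins, a site whose core reads TGATGNAA, the amino acid response element. The core was searched on both strands of RefSeq promoter windows (GRCh38.p14) that run from 250 bases before to 50 bases after each annotated start. It was present in 4.46% of the 27305 genes that have such a window, counting any start of a gene, and in 3.62% of the 35116 windows. Of the 33 synthetase and scaffold genes in the promoter table, 8 held it. They were 7 of 10 known ATF4 targets, 0 of 6 other cytosolic genes, 1 of 14 mitochondrial genes and 0 of 3 scaffold genes. LARS1, VARS1, YARS1, AARS2 and VARS2 were not in the table. The stretches around the 8 matches are shown because the ratios given further on are also split by them. Capitals mark the core as read on the gene's own strand, 5′ to 3′, where it appears as its reverse complement except in NARS1 and YARS2.
AARS1: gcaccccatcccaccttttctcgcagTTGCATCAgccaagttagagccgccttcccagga
CARS1: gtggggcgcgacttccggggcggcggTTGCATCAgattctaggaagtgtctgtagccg
GARS1: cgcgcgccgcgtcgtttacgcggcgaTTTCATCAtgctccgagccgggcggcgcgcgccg
IARS1: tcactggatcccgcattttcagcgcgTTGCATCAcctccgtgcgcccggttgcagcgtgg
MARS1: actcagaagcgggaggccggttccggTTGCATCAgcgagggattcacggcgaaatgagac
NARS1: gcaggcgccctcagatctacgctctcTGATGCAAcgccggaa
TARS1: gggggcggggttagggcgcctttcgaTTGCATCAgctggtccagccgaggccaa
YARS2: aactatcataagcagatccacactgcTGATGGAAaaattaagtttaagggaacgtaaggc

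On the minus strand lay the stretches of AARS1 (chr16:70289660-70289719), CARS1 (chr11:3057394-3057451), IARS1 (chr9:92293677-92293736), NARS1 (chr18:57621807-57621848) and YARS2 (chr12:32756061-32756120). On the plus strand lay those of GARS1 (chr7:30594819-30594878), MARS1 (chr12:57488038-57488097) and TARS1 (chr5:33440941-33440994). Read from the core's own strand, AARS1, CARS1, IARS1, MARS1, NARS1 and TARS1 carried TGATGCAA, GARS1 carried TGATGAAA and YARS2 carried TGATGGAA. In CARS1, GARS1, IARS1 and MARS1 the core began 2, 33, 13 and 4 bases before the start, in AARS1 187 and in YARS2 197 bases before it. In NARS1 and TARS1 it began 15 and 3 bases into the transcript. A match describes these letters only, and no binding was measured.

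Cytosolic synthetase RNA was more abundant than mitochondrial synthetase RNA in every library, and every one of the 38 genes was detected in all 4. The 19 cytosolic genes summed to 2289 TPM in 8505C with CRABP1, 1841 TPM in 8505C with vector, 3744 TPM in FTC-133 with CRABP1 and 2854 TPM in FTC-133 with vector. The 16 mitochondrial genes summed to 456, 444, 515 and 507 TPM in the same libraries. The cytosolic sum was thus 5.02, 4.15, 7.27 and 5.63 times the mitochondrial sum, a quotient within a library that does not depend on how libraries are scaled. It was higher with CRABP1 than with vector in both lines, and lower in 8505C than in FTC-133 with either vector. The 3 scaffold genes summed to 120, 117, 133.3 and 126 TPM. These are bulk RNA levels, in which fewer cells that use a gene and less of its RNA per cell cannot be told apart.

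**Figure D1:**
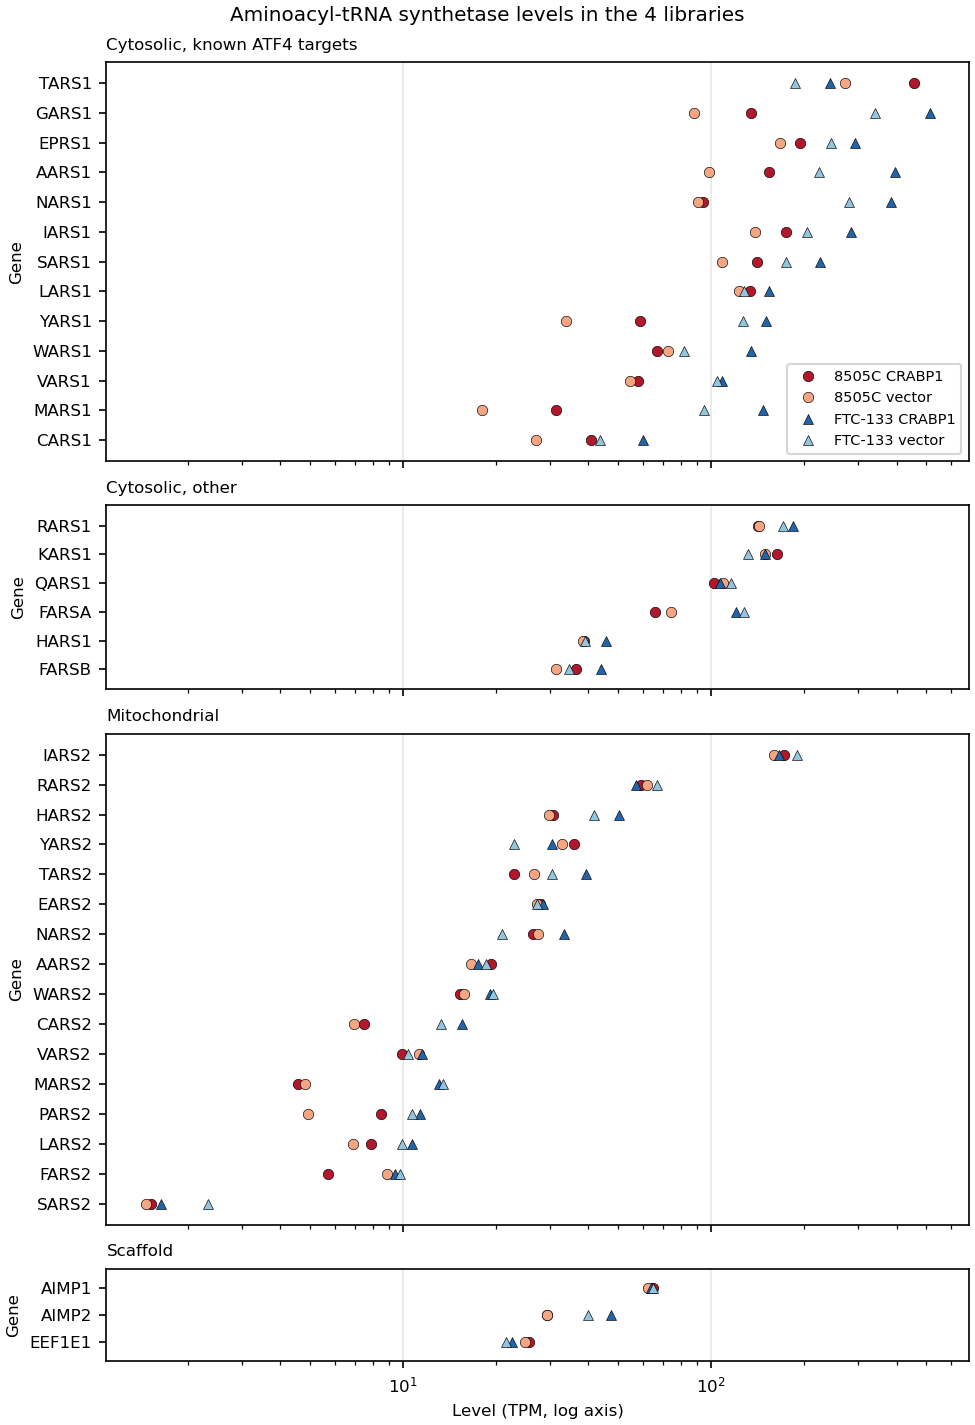
Level of each synthetase and scaffold gene in the 4 libraries, in TPM on a log axis, with 1 point per library. Panels hold the cytosolic known ATF4 targets, the other cytosolic, the mitochondrial and the scaffold genes, each sorted by mean level. The 8505C points of MARS1, GARS1, YARS1, NARS1 and AARS1 lie left of both FTC-133 points, while most mitochondrial genes have 4 points close together.

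Among the cytosolic genes the leading enzyme differed by line. TARS1, the threonine enzyme, was the highest in 8505C, at 457 TPM with CRABP1 and 273 TPM with vector, and stood at 243 and 187 TPM in FTC-133 with CRABP1 and vector. GARS1, the glycine enzyme, was the highest in FTC-133, at 512 and 340 TPM with CRABP1 and vector, and stood at 135 and 88.2 TPM in 8505C. EPRS1 was high throughout, at 194 and 167 TPM in 8505C with CRABP1 and vector and at 293 and 245 TPM in FTC-133. The lowest cytosolic gene was MARS1 in both 8505C libraries, at 31.4 TPM with CRABP1 and 18.1 TPM with vector, and FARSB in both FTC-133 libraries, at 44.1 and 34.5 TPM.

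The mitochondrial genes spanned a wider range of levels, from SARS2 at 1.46 to 2.33 TPM up to IARS2 at 160 to 189 TPM. IARS2, the isoleucine enzyme, was at 173 and 160 TPM in 8505C with CRABP1 and vector and at 167 and 189 TPM in FTC-133. RARS2, the arginine enzyme, was at 59.4 and 62.1 TPM in 8505C and at 56.9 and 66.7 TPM in FTC-133, in the same order. HARS2, the histidine enzyme, was at 30.7 and 29.8 TPM in 8505C and at 50.2 and 41.7 TPM in FTC-133. These were the 3 mitochondrial genes with the highest mean. The cytosolic gene was above its mitochondrial counterpart in 15 of 15 pairs in 8505C with CRABP1 and in 14 of 15 in each other library. The exceptions were IARS1 in 8505C with vector, at 0.868 times IARS2, and HARS1 in FTC-133, at 0.911 and 0.938 times HARS2 with CRABP1 and vector. HARS1 and HARS2 are oppositely oriented and share 437 exon bases, 5.56% and 11.7% of their exon lengths. Since the strand setting of the counting is not given, the order within this pair is uncertain.

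CRABP1 overexpression was compared with vector within each line to ask which genes differ with it. Of the 19 cytosolic genes, 15 lay above vector in 8505C and 17 in FTC-133, but only 5 and 4 reached 1.5-fold, most ratios being small. Of the 16 mitochondrial genes, 9 lay above vector in each line and 1 reached 1.5-fold. Of the 3 scaffold genes, 3 lay above vector in 8505C and 2 in FTC-133, none by 1.5-fold. Over all genes averaging 1 TPM or more, 9604 of 17561 lay above vector in 8505C and 11497 of 19899 in FTC-133. With 1 library per group no p-value exists for a line. A gene was counted as higher or lower where the ratio of TPM + 1 reached 1.5-fold, a scale that understates the ratio of low genes, and only genes averaging 1 TPM or more were tested, which all 38 did. In 8505C, 6 of the 38 genes were higher by this rule (AARS1, GARS1, MARS1, TARS1, YARS1 and PARS2) and 0 were lower, against 7.39% of the 17561 genes tested that were higher and 7.64% that were lower. In FTC-133, 5 were higher (AARS1, GARS1, MARS1, WARS1 and NARS2) and 0 were lower, against 13.1% of 19899 genes higher and 9.69% lower. The count of higher genes in FTC-133 is thus about the share found over all genes. When only genes averaging 5 TPM or more were counted, as 36 of the 38 did in 8505C and 37 in FTC-133, these background shares were 2.47% higher and 2.81% lower in 8505C, and 7.79% higher and 4.78% lower in FTC-133. At a 2-fold threshold 0 of the 38 were counted in either direction in either line, against 3.7% of all genes higher and 4.07% lower in 8505C, and 6.02% higher and 4.92% lower in FTC-133. With libraries scaled by median ratios, GARS1 no longer passed in either line nor MARS1 in FTC-133, which left 5 genes in 8505C and 3 in FTC-133.

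AARS1, GARS1 and MARS1 passed in both lines. AARS1, the alanine enzyme (chr16:70252295-70289543), was at 154 TPM with CRABP1 and 98.2 TPM with vector in 8505C, and at 394 TPM with CRABP1 and 224 TPM with vector in FTC-133. Its TPM ratio was 1.57 (95% interval 1.49 to 1.66) in 8505C and 1.76 (1.70 to 1.82) in FTC-133. The intervals here and below are Clopper-Pearson intervals on recovered reads and cover counting error only, not the spread between cultures. For GARS1 (chr7:30594681-30634033), whose levels are given above, the ratio was 1.53 (1.44 to 1.62) in 8505C and 1.51 (1.46 to 1.55) in FTC-133. It was therefore nearly the same in both lines, although the gene was far lower in 8505C.

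MARS1, the methionine enzyme (chr12:57475445-57517569), was at 31.4 TPM with CRABP1 and 18.1 TPM with vector in 8505C, and at 148 and 94.8 TPM in FTC-133. Its ratio was 1.74 (1.58 to 1.92) in 8505C and 1.56 (1.49 to 1.62) in FTC-133. The 3′ end of MARS1 meets the oppositely oriented gene DDIT3, itself an ATF4 target, over 355 exon bases, which are 5.05% of the exon length of MARS1. DDIT3 was at 21.4 and 18.05 TPM in 8505C with CRABP1 and vector and at 249 and 193 TPM in FTC-133. The strand setting of the counting is not given in the sources used here, so reads from these shared bases cannot be told apart.

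TARS1 and YARS1 passed in 8505C. TARS1 (chr5:33440696-33469539) had a ratio of 1.68 (1.63 to 1.72) in 8505C and of 1.30 (1.25 to 1.34) in FTC-133. YARS1, the tyrosine enzyme (chr1:32775237-32818153), was at 58.7 TPM with CRABP1 and 33.8 TPM with vector in 8505C, and at 151 and 127 TPM in FTC-133. Its ratio was 1.73 (1.62 to 1.85) in 8505C and 1.19 (1.15 to 1.24) in FTC-133. For both genes the counting intervals of the lines do not overlap, and the difference between lines was not tested, since each line has 1 library per group.

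WARS1, the tryptophan enzyme, which interferon gamma is known to induce, differed in direction. It was at 66.8 TPM with CRABP1 and 72.7 TPM with vector in 8505C, a ratio of 0.919 (0.866 to 0.975), and at 134 and 81.8 TPM in FTC-133, a ratio of 1.64 (1.57 to 1.72). Genes of the interferon gamma response were also higher in FTC-133. There, 7 of 7 measured genes were above vector and 4 were at least 1.5-fold higher, against 13.1% of all genes. The median log2 ratio of the 7 was 0.86. A gene among the 4 averaged 1 TPM only through its CRABP1 library, and its counting interval includes 1. IRF1, a transcription factor of this response, was at 39.6 TPM with CRABP1 and 19.8 TPM with vector. In 8505C, 2 of 5 measured genes were above vector, with a median log2 ratio of -0.04. Of the 5, 1 (GBP2) was at least 1.5-fold lower, against 7.64% of all genes. GBP2 was at 0.901 TPM with CRABP1 and 2.86 TPM with vector, a ratio of 0.315 (0.203 to 0.490). It averaged 1 TPM or more only through its vector library. In the same line IRF1 was at 15.7 TPM with CRABP1 and 15.2 TPM with vector. The part of this response in the WARS1 result was not tested.

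Genes higher with CRABP1 in both lines without passing 1.5-fold on the TPM + 1 scale in either included CARS1, NARS1, SARS1, EPRS1, IARS1, KARS1 and LARS1. CARS1, the cysteine enzyme, was at 40.8 and 27.1 TPM in 8505C with CRABP1 and vector and at 60.0 and 43.5 TPM in FTC-133, with ratios of 1.51 (1.41 to 1.61) and 1.38 (1.31 to 1.45). NARS1, the asparagine enzyme, was at 94.0 and 91.0 TPM in 8505C and at 384 and 280 TPM in FTC-133, with ratios of 1.03 (0.969 to 1.10) and 1.37 (1.33 to 1.42). In 8505C the interval of NARS1 includes 1, so a difference was not detectable there at this depth. SARS1, the serine enzyme, was at 141 and 109 TPM in 8505C and at 225 and 174 TPM in FTC-133, with ratios of 1.30 and 1.29. EPRS1 had ratios of 1.16 (1.12 to 1.21) in 8505C and 1.20 (1.16 to 1.24) in FTC-133, and IARS1, the isoleucine enzyme, of 1.26 and 1.39. KARS1, which is outside the known ATF4 targets, had ratios of 1.10 (1.04 to 1.15) in 8505C and 1.14 (1.08 to 1.20) in FTC-133. LARS1, a known target, had 1.08 (1.04 to 1.12) and 1.21 (1.17 to 1.25).

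VARS1, the valine enzyme, was at 58.0 and 54.7 TPM in 8505C with CRABP1 and vector and at 109 and 104 TPM in FTC-133, and both counting intervals of its ratio include 1. FARSA, the catalytic subunit of the phenylalanine enzyme, was at 65.6 and 74.1 TPM in 8505C and at 120 and 128 TPM in FTC-133. Its ratio was 0.885 (0.804 to 0.974) in 8505C and 0.941 (0.878 to 1.01) in FTC-133, where the interval includes 1. QARS1, the glutamine enzyme, was below vector in both lines, with ratios of 0.935 (0.885 to 0.989) in 8505C and 0.920 (0.873 to 0.970) in FTC-133. FARSB, the partner subunit of FARSA, had ratios of 1.16 (1.03 to 1.30) and 1.28 (1.15 to 1.42), so in 8505C the intervals of the subunits lay on opposite sides of 1.

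**Figure D2:**
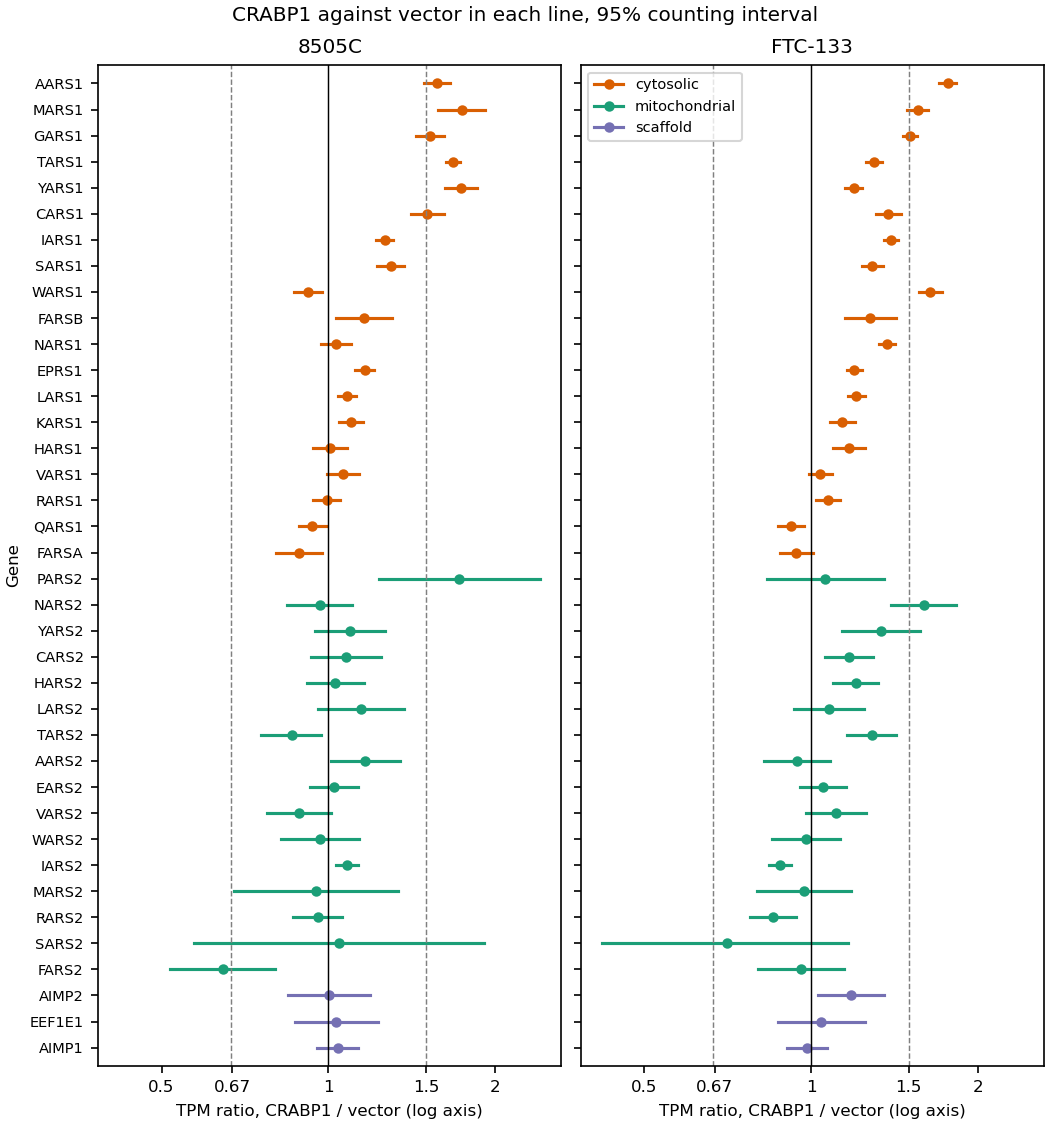
Ratio of TPM with CRABP1 to TPM with vector for each gene in 8505C (left) and FTC-133 (right) on a log axis, with 95% counting intervals as bars and dashed lines at 1.5-fold in either direction. Of the 19 cytosolic genes, 12 have an interval above 1 in both lines, and of the 16 mitochondrial genes, which have fewer reads and wider intervals, 0 do.

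Read as groups, the known ATF4 targets and the other cytosolic enzymes differed in their medians in both lines. Of the 13 known targets, 12 were above vector in 8505C, with a median log2 ratio of 0.37, and 13 in FTC-133, with a median of 0.45. Of the 6 others, 3 were above vector in 8505C, with a median of 0.00, and 4 in FTC-133, with a median of 0.14. Over all genes tested the median was 0.02 in 8505C and 0.06 in FTC-133. The known targets summed to 1740 TPM with CRABP1 and 1295 TPM with vector in 8505C, and to 3093 and 2234 TPM in FTC-133, which gave sums 1.34 and 1.38 times those with vector. The other cytosolic genes summed to 549 and 546 TPM in 8505C and to 651 and 621 TPM in FTC-133, which gave 1.01 and 1.05 times. Counting intervals lay above 1 in both lines for 10 of the 13 known targets, 2 of the 6 others and 0 of the mitochondrial genes. The share over all genes was 7.02% of the 15557 genes averaging 1 TPM or more in both lines, and 9.47% of those averaging 5 TPM or more. An interval narrows with the number of reads, which averaged 3149 per library for the median cytosolic gene and 424 for the median mitochondrial gene.

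The 7 cytosolic genes with the TGATGNAA core in a promoter window were all above vector in both lines, with median log2 ratios of 0.60 in 8505C and 0.48 in FTC-133. Of the 9 cytosolic genes in the promoter table without it, 5 were above vector in 8505C, with a median of 0.01, and 7 in FTC-133, with a median of 0.22. YARS1, not in the table, had one of the largest ratios in 8505C. SARS1 and EPRS1, which had no match in these windows, were above vector in both lines. WARS1, also without a match, had the highest log2 ratio of the 9 in FTC-133, at 0.71, and -0.12 in 8505C. NARS1, with the core, had a counting interval that includes 1 in 8505C. All 7 genes with the core are known ATF4 targets, so this split is not independent of the split by known targets. YARS2, the mitochondrial gene with the core, had ratios of 1.09 (0.944 to 1.26) in 8505C and 1.34 (1.14 to 1.57) in FTC-133. Membership of the multisynthetase complex and enzyme class were compared in the same way. The 7 enzymes of the complex had medians of 0.13 in 8505C and 0.26 in FTC-133, against 0.29 and 0.37 for the 12 cytosolic enzymes outside it. Class I and class II enzymes, which differ in the fold of the catalytic domain, both had medians of 0.09 in 8505C, and 0.12 and 0.30 in FTC-133.

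The mitochondrial genes stayed close to the median of all genes, at 0.03 in 8505C and 0.07 in FTC-133 on the log2 scale, with 9 of 16 above vector in each line. Their sum with CRABP1 was 1.03 times that with vector in 8505C and 1.02 times in FTC-133. PARS2, the proline enzyme, was at 8.45 TPM with CRABP1 and 4.92 TPM with vector in 8505C, and at 11.3 and 10.7 TPM in FTC-133. Its ratio of 1.72 in 8505C rests on about 101 reads with CRABP1 and 59 with vector and has an interval of 1.23 to 2.41, and its ratio in FTC-133 was 1.06 (0.833 to 1.35). NARS2, the asparagine enzyme, was at 26.5 and 27.4 TPM in 8505C and at 33.4 and 20.9 TPM in FTC-133, with ratios of 0.964 (0.842 to 1.10) and 1.597 (1.39 to 1.83). Each of these genes thus passed in 1 line, with an interval that includes 1 in the other.

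Some mitochondrial genes lay on opposite sides of 1 in the lines. TARS2, the threonine enzyme, had ratios of 0.858 (0.757 to 0.972) in 8505C and 1.29 (1.16 to 1.42) in FTC-133, and IARS2 had ratios of 1.08 (1.03 to 1.13) and 0.879 (0.840 to 0.918). FARS2, the phenylalanine enzyme, was at 5.71 TPM with CRABP1 and 8.86 TPM with vector in 8505C, a ratio of 0.644 (0.517 to 0.800) that rests on 140 and 218 reads, against 9.41 and 9.80 TPM in FTC-133. It missed the 1.5-fold rule only through the pseudocount of 1 TPM, since with 0.1 TPM it was counted as lower. RARS2 had ratios of 0.956 (0.864 to 1.06) and 0.854 (0.775 to 0.941) and HARS2 of 1.03 and 1.20. MARS2 and CARS2, the methionine and cysteine enzymes, had ratios of 0.949 and 1.08 in 8505C and of 0.971 and 1.17 in FTC-133. SARS2, with 24 to 41 reads per library, could not show a difference at this depth. Its union exons also overlap a same-strand gene over 46.2% of their length.

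Set against its own counterpart, the cytosolic gene had the higher log2 ratio in 12 of 15 pairs in 8505C and in 10 of 15 in FTC-133. FARS2 enters both with FARSA and with FARSB, and both of these pairs are among the 12 in 8505C. The median difference between the log2 ratios of a pair was 0.33 in 8505C and 0.24 in FTC-133. In 8505C the largest difference was that of TARS1 over TARS2, at 0.96, and in FTC-133 that of AARS1 over AARS2, at 0.89. Across the 19 cytosolic genes the log2 ratios of the 2 lines had a Spearman correlation of 0.51, of 0.08 within the 13 known ATF4 targets and 0.89 within the 6 others, and across the 16 mitochondrial genes of 0.01. These describe genes that share libraries and are not replicates of each other. The scaffold genes AIMP1, AIMP2 and EEF1E1 had ratios of 1.04, 1.003 and 1.03 in 8505C and of 0.984, 1.18 and 1.04 in FTC-133. AIMP2, at 29.4 and 29.4 TPM in 8505C with CRABP1 and vector and 47.2 and 40.0 TPM in FTC-133, was the only one of the 3 whose interval excluded 1, in FTC-133 (1.03 to 1.35). AIMP2 shares 28.9% of its exon length with the oppositely oriented gene EIF2AK1, so its level is uncertain.

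**Figure D3:**
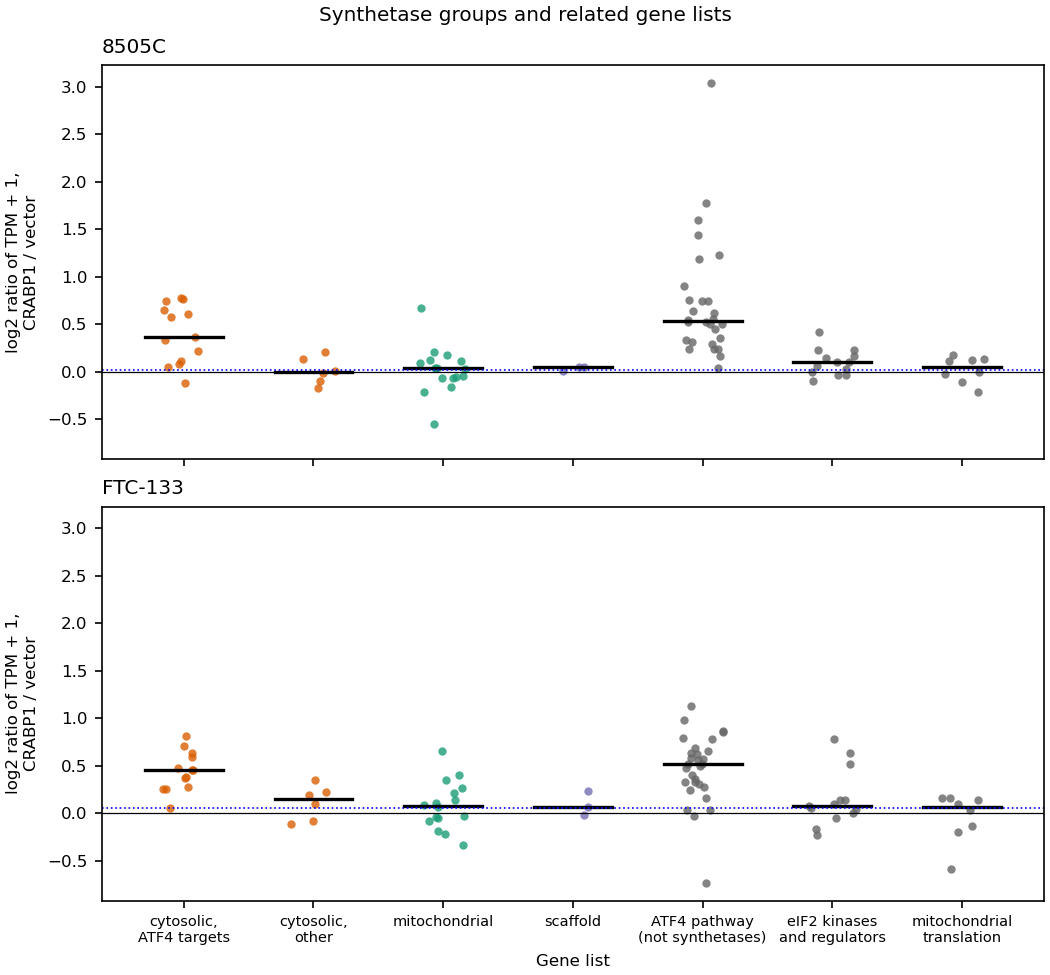
Log2 ratio of TPM + 1 with CRABP1 against vector for each gene of the synthetase groups and related lists in 8505C (top) and FTC-133 (bottom), with a black bar at each list's median and a dotted line at the median of all genes tested. The known ATF4 targets among the synthetases and the other ATF4 pathway genes lie mostly above 0 in both lines, whereas the other lists drawn here have medians between 0.00 and 0.14.

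Other genes of the ATF4 pathway, taken from a separate list of 29 without synthetases, lay mostly above vector as well. In 8505C, 28 of 28 genes averaging 1 TPM or more were above vector and 12 were at least 1.5-fold higher, against 7.39% of all genes. The median log2 ratio was 0.54. FGF21, left out by that filter, was at 0 TPM with CRABP1 and 0.149 TPM with vector. ASNS (2.30 and 0.402 TPM) and NUPR1 (1.74 and 0.935 TPM) met the filter only through the CRABP1 library. In FTC-133, 27 of 29 were above vector and 10 were at least 1.5-fold higher, against 13.1% of all genes, with a median of 0.52. Only 1 (VLDLR) was at least 1.5-fold lower, against 9.69% of all genes. FGF21, among the 10, met the filter only through the CRABP1 library, at 1.59 TPM against 0.419 TPM with vector. Its counting interval (0.999 to 21.1) includes 1. ATF4 itself was at 495 TPM with CRABP1 and 337 TPM with vector in 8505C, and at 654 and 438 TPM in FTC-133. PSAT1, an enzyme of serine synthesis, was at 254 and 93.1 TPM in 8505C and at 458 and 267 TPM in FTC-133. CHAC1, which degrades glutathione, was at 19.0 and 1.44 TPM in 8505C and at 56.2 and 50.1 TPM in FTC-133. XPOT, which exports tRNAs from the nucleus, was at 104 and 87.7 TPM in 8505C and at 208 and 167 TPM in FTC-133.

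The list of eIF2 kinases and regulators had medians of 0.10 in 8505C and 0.08 in FTC-133 over 13 genes. In 8505C, 0 of the 13 were at least 1.5-fold higher, against 7.39% of all genes. In FTC-133, 2 were (PPP1R15A and EIF2S2), against 13.1% of all genes. PPP1R15A, the stress-induced phosphatase subunit for eIF2, was at 100 and 85.8 TPM in 8505C with CRABP1 and vector and at 310 and 181 TPM in FTC-133. The mitochondrial translation factors had medians of 0.05 and 0.06 over 8 measured genes, close to those of the mitochondrial synthetases. The tRNA editing and mitochondrial charging partners had medians of -0.07 and -0.12 over 9 genes. Subunits of elongation factor 1, the factor that takes charged tRNAs to the ribosome, had medians of 0.02 and 0.14 over 4 measured genes. EEF1G was listed at 0 in all 4 libraries and was not counted. RNA levels do not show kinase activity or the phosphorylation of eIF2, neither of which was measured.

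The lines were then used as replicates of the transfection in 1 limma fit over all 4 libraries, with cell line as a term and 1 residual degree of freedom. By limma with Benjamini-Hochberg adjustment over 19513 genes, 0 of the 38 genes passed an adjusted p of 0.05, and the smallest adjusted p among them was 0.920. Over all genes 1 passed as higher, 0.00512% of those tested, and 0% as lower. At an unadjusted p under 0.05, 8 of the 38 were higher (AARS1, CARS1, GARS1, IARS1, MARS1, SARS1, TARS1 and YARS1) and 0 lower, against 2.84% of all genes higher and 1.89% lower. Without a mean-variance trend the 8 became 4, and without cell line as a term 0. All 8 are known ATF4 targets of the cytosol. AARS1 had a log2 difference of 0.73 with a standard error of 0.101, and it was higher with CRABP1 in 2 of 2 lines. MARS1 had 0.70 with a standard error of 0.104 and GARS1 0.60 with 0.0909. None of these differences passed after adjustment.

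The vector libraries were compared to ask how the lines differ without CRABP1. Of the 19 cytosolic genes, 17 were below their FTC-133 level in 8505C and 9 of them by 1.5-fold or more, while TARS1 and KARS1 were above it. Over all genes tested, 11225 of 19470 were below their FTC-133 level. Of the 38 genes, 12 were at least 1.5-fold lower in 8505C and 0 were at least 1.5-fold higher, against 32.5% of the 19470 genes tested that were lower and 20.1% that were higher. The count of lower genes is thus about the share found over all genes. For genes averaging 5 TPM or more these shares were 26.5% and 18.7%. At 2-fold, 6 of the 38 were lower and 0 higher, against 21.6% and 12.1% of all genes. The median of all genes was itself below 0, at -0.17 on the log2 scale, and median-ratio scaling brought it to -0.03. With that scaling 10 of the 38 genes were lower and 2 (TARS1 and YARS2) higher, CARS1 and SARS1 being the 2 that no longer passed.

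The 9 cytosolic genes past the rule were MARS1, GARS1, YARS1, NARS1, AARS1, VARS1, FARSA, CARS1 and SARS1. MARS1 was 5.24-fold lower in 8505C with vector (18.1 TPM) than in FTC-133 with vector (94.8 TPM), a ratio of 0.191 (0.175 to 0.207). GARS1 was 3.85-fold lower, YARS1 3.74-fold, NARS1 3.07-fold and AARS1 2.28-fold. VARS1, FARSA, CARS1 and SARS1 were between 1.61-fold and 1.91-fold lower. Of these 9, only FARSA is outside the known ATF4 targets. The median log2 ratio was -0.68 over the 13 known targets and -0.11 over the 6 others, for which median-ratio scaling gave 0.041. TARS1 was higher in 8505C, with a ratio of 1.45 (1.41 to 1.51), and KARS1, the lysine enzyme, had a ratio of 1.14 (1.08 to 1.20). The 29 other ATF4 pathway genes had a median of -1.29 over 28 measured. Of these, 20 were at least 1.5-fold lower and 2 at least 1.5-fold higher, against 32.5% and 20.1% of all genes. ASNS and NUPR1 met the filter only through the FTC-133 library. They were at 0.402 and 0.935 TPM in 8505C with vector and at 13.1 and 31.4 TPM in FTC-133 with vector.

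Of the mitochondrial genes, MARS2, PARS2 and CARS2 passed the rule. MARS2 was at 4.57 and 4.82 TPM in 8505C with CRABP1 and vector and at 13.1 and 13.4 TPM in FTC-133. Its ratio between the vector libraries was 0.358 (0.272 to 0.468), or 2.79-fold lower. CARS2 was at 7.46 and 6.93 TPM in 8505C and at 15.6 and 13.3 TPM in FTC-133, with a ratio between the vector libraries of 0.520 (0.458 to 0.590), or 1.92-fold lower. PARS2 was 2.17-fold lower, with a ratio of 0.461 (0.336 to 0.635). The median over the 16 mitochondrial genes was -0.22, near that of all genes. For methionine both the cytosolic and the mitochondrial enzyme thus passed as lower in 8505C. The same held for cysteine, except that CARS1 did not pass under median-ratio scaling. NARS2 and YARS2 were above their FTC-133 levels, with ratios of 1.31 (1.14 to 1.51) and 1.43 (1.22 to 1.69), while NARS1 and YARS1 were among the lowest. As a result the tyrosine pair was nearly level in 8505C with vector, with YARS1 at 1.03 times YARS2, against 5.53 times in FTC-133 with vector.

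**Figure D4:**
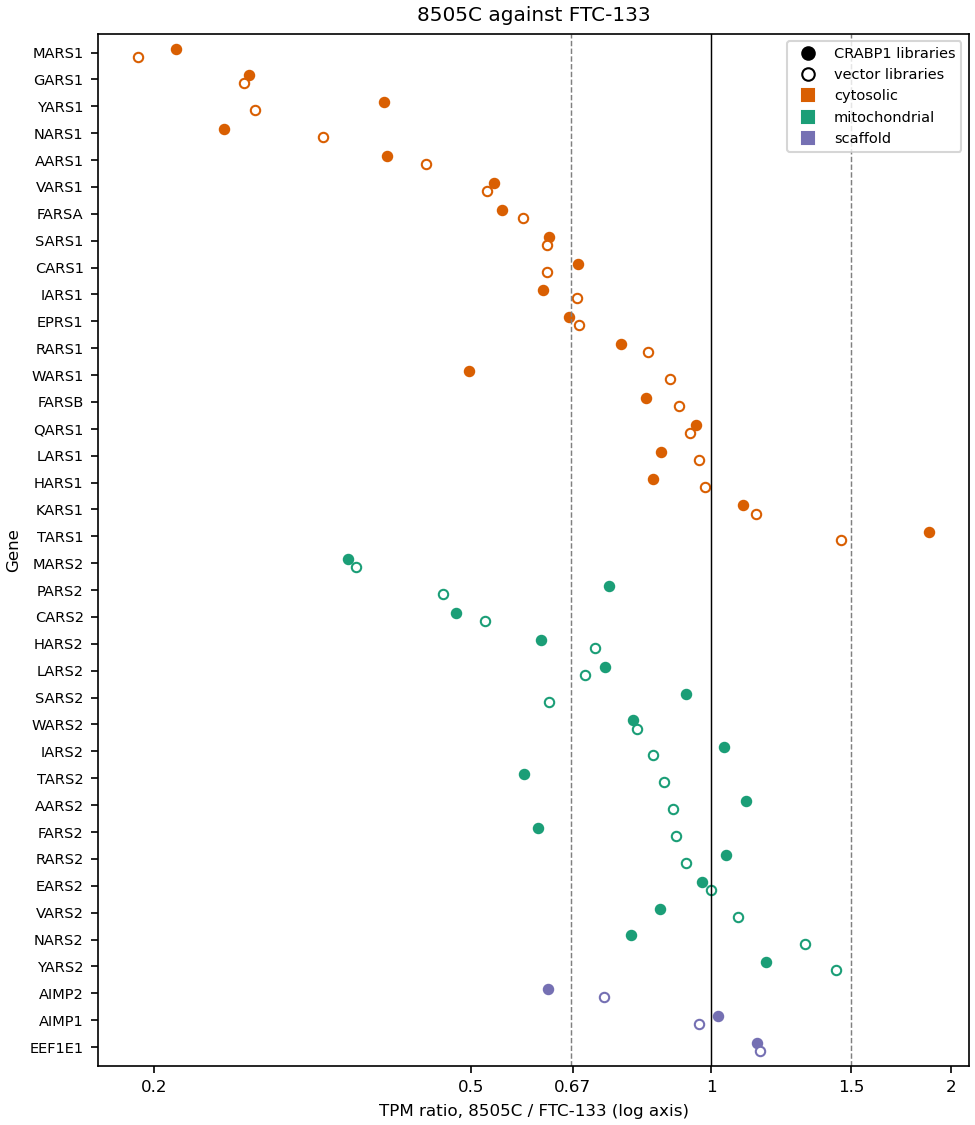
Ratio of TPM in 8505C to TPM in FTC-133 for each gene on a log axis, between the CRABP1 libraries (filled points) and between the vector libraries (open points), with dashed lines at 1.5-fold in either direction. MARS1, GARS1, NARS1, YARS1 and AARS1 lie between 0.213 and 0.391 for the CRABP1 libraries and between 0.191 and 0.439 for the vector libraries, and TARS1 lies at 1.88 and 1.45.

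With both transfections as replicates of the line, 16 of the 38 genes passed an adjusted p of 0.05 in the same limma fit, 1 of them higher in 8505C and 15 lower, against 13% of all genes higher and 22.2% lower. Over all genes 2542 were higher and 4335 lower, a split that became 3226 higher and 3391 lower under median-ratio scaling. The lowest was MARS1, which was lower in 8505C in 2 of 2 transfections, with a log2 difference of -2.26 (standard error 0.104, limma adjusted p = 0.00395). GARS1 followed with -1.93 (0.0909, limma adjusted p = 0.00407) and NARS1 with -1.81 (0.140, limma adjusted p = 0.00714). YARS1 had -1.61 and AARS1 -1.26, with limma adjusted p-values of 0.0106 and 0.00747. TARS1 was the gene that was higher, with 0.72 (standard error 0.133, limma adjusted p = 0.0291).

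The other genes that were lower in 8505C in this fit were VARS1, FARSA, SARS1, IARS1, EPRS1 and CARS1 of the cytosol, MARS2, CARS2 and HARS2 of the mitochondria, and AIMP2. MARS2 had a log2 difference of -1.32 (standard error 0.164, limma adjusted p = 0.0142). PARS2, lower in the vector libraries, had -0.68 in this fit and did not pass (limma adjusted p = 0.0902), its level in 8505C being higher with CRABP1. WARS1 had -0.58 and did not pass (limma adjusted p = 0.135). Between the CRABP1 libraries it was at 0.497 times its FTC-133 level, and between the vector libraries at 0.888 times. Without a filter on low values 4 of the 38 genes passed and without a mean-variance trend 8, all lower in 8505C.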

How the data were processed

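Illumina sequencing gave 4 libraries of total RNA. The authors deposited 1 table of TPM values. The genome build was GRCh38, and the tools named were featureCounts 2.0.0, Trimmomatic 0.38 and FastQC, per the submitters' processing notes. For the aligner, the annotation and the strand setting, the sources used here give nothing. Columns were assigned to samples by name.

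Reads were recovered by multiplying TPM by GENCODE 29 union exon lengths, known for 58611 of the identifiers. Of values up to 50 reads, 90.5% to 91.6% were within 0.02 of a whole number. Of the 38 genes, 17 gave whole reads in every library. Reads of the other 21 are approximate and serve for 95% Clopper-Pearson intervals and for the read numbers given as about. Of the 38 genes, 22 share exon bases with another gene.

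Ratios used a pseudocount of 1 TPM and kept genes averaging 1 TPM or more over the libraries of a comparison. limma 3.58.1 in R 4.3.3 was fitted with a trend to log2(TPM + 1), two-sided, with cell line and transfection as terms. The code of the fit was also run on simulated counts with noise little above counting error and genes changed alike in both lines. That setting lacks the spread between cultures, so the run does not test the p-values given here. The 1 residual degree of freedom of the limma fit holds how unlike the transfection difference is in the 2 lines. This equals how unlike the line difference is in the 2 transfections. The p-values of the fit rest on that unlikeness, which may be technical, and on the trend over all genes. They do not rest on repeat libraries of a group. Alternatives were a pseudocount of 0.1 TPM, no filter, an average of 5 TPM or more, median-ratio scaling, removal of mitochondrially encoded genes, a 2-fold threshold, means in place of medians, no trend and no block. The genes, lists and rules were chosen with earlier results of these data known. Levels in every library were given for genes past 1.5-fold in a line or between the vector libraries and for the 3 cytosolic and 3 mitochondrial genes with the highest mean TPM. Other genes named singly were chosen after their values were seen. Coordinates of genes are those of GENCODE 29 and of promoters those of RefSeq, both on GRCh38. For the interferon gamma list, 1 counted gene is not reported here by its own values.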

Additional observations from a re-analysis of the deposited data

Results flagged for a closer look

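In 3 genes the ratio of CRABP1 to vector lay on opposite sides of 1 in the 2 lines, with counting intervals that exclude 1 in each. The difference between the lines was not tested, since each group holds 1 library. WARS1 had a log2 ratio of -0.12 in 8505C and 0.71 in FTC-133. TARS2 had -0.21 in 8505C and 0.35 in FTC-133. IARS2 had 0.11 in 8505C and -0.19 in FTC-133.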

How the results depend on the processing

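Of 140 alternative values of counts and medians, 124 stayed close to those reported and 16 moved. Medians near 0 could change sign, as that of the scaffold genes in FTC-133 did under median-ratio scaling, from 0.060 to -0.0024. The median of the other cytosolic genes between the vector libraries did so too, from -0.11. No single gene that had passed 1.5-fold changed sign. Under median-ratio scaling, FTC-133 with CRABP1 against vector had 3 genes at least 1.5-fold higher in place of 5 (without GARS1 and MARS1), a cytosolic median of 0.28 and a median of 0.39 for the known ATF4 targets. Between the vector libraries the same scaling gave 2 genes higher in 8505C in place of 0, a cytosolic median of -0.41 in place of -0.56, -0.53 for the known ATF4 targets and 0.041 for the other cytosolic genes. Means in place of medians gave -0.69 for the cytosolic genes and -0.92 for the known targets there. With mitochondrially encoded genes removed, 3 genes were higher in FTC-133. At 2-fold, 0 genes were higher in either line and 6 were lower in 8505C with vector than in FTC-133 with vector. With a pseudocount of 0.1 TPM, 1 gene (FARS2) was lower in 8505C with CRABP1. The limma count for the line was 4 without a filter and 8 without a trend, in place of 16. The 1 gene of all that limma called for the transfection passed with a mean of at least 5 TPM and under none of the other alternatives. Apart from the threshold, the pseudocount and the filter, whose construction sets the change, the cause was not tested. The medians split by known ATF4 targets were chosen as alternatives after the data were seen.

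Cell line was a block in the fit for the transfection. Without this replicate block the limma fit called 0 of the 38 genes for the transfection, at an adjusted and at an unadjusted p, and 12 for the line without the transfection term. No sample could be left out, since each group holds 1 library. The sign of the ratio changed under median-ratio scaling for VARS1 and EEF1E1 in FTC-133, for HARS1 and AIMP2 in 8505C, and between the vector libraries for FARSB, HARS1, LARS1, QARS1, EARS2, FARS2, RARS2 and AIMP1, none of which had passed 1.5-fold there. Depth limits SARS2, PARS2 and MARS2 most.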
